A study of Mus musculus with 2 samples.

Results

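DNA replication was followed here through 34 genes, named from what is known of the replication machinery, with earlier results of these data known, among 32285 genes counted in single cells of mouse tumors. All 34 were found in the gene list of both libraries. The tumors were Lewis lung carcinoma (LLC, a transplantable mouse lung cancer line) grown under the skin of C57BL/6 mice. The control library, sGC-Ctr, came from Gucy1b1 flox/flox mice, and the other, sGC-∆PC, from Cspg4-CreERT2::Gucy1b1 flox/flox mice (the label spells the gene Gucyc1b1). Gucy1b1 encodes a subunit of soluble guanylate cyclase (sGC), the receptor for nitric oxide. The Cre recombinase is driven by the promoter of Cspg4, a gene of pericytes that is also active in some other cell types, and it becomes active after tamoxifen. By the study's methods, mice of both genotypes were given tamoxifen 5 times at 4 weeks of age, received tumor cells at 8 weeks, and gave their tumors 2 weeks after that. Cells of 3 tumors were pooled into 1 library per genotype, so the genotype, the mice and the library cannot be told apart and no test between genotypes is possible.

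In late mitosis and G1 the MCM helicase is loaded on origins of replication by Cdc6 and Cdt1. At the start of S phase Cdc45 and the GINS complex switch it on, polymerases then copy both strands, and the PCNA clamp holds them to DNA until the Okazaki fragments are cut by Fen1 and sealed by Lig1. Most of these genes are transcribed at the boundary between G1 and S under the control of E2F factors, which cyclin E activity releases from the retinoblastoma protein. A cell rich in these transcripts is commonly read as a cell near or in S phase.

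Because E2F control is the best known feature shared by these genes, their promoters were searched for E2F letters (TTTCCCGC, TTTGGCGC, TTTCGCGC or TTTGCCGC on either strand). RefSeq promoter windows of 300 bases on GRCm38.p6, from 250 bases before to 50 bases after a transcription start, were at hand for 29 of the 34 genes. Of these, 12 (41.4%) held the letters in at least 1 window, against 2.6% of 27025 genes with a window. In 8 genes a match lay wholly before the start, and in the other 4 (Mcm3, Cdt1, Lig1 and Clspn) no match did. The matches wholly before the start and their flanks of up to 20 bases are shown here for the 8 genes. They run 5′ to 3′ on the gene's strand, with the matched letters in capitals. Further matches in Mcm7 and Rfc3 did not lie wholly before the start and are not shown. Where 2 matches overlap on opposite strands, the capitals run through both. Mcm5 (chr8:75109336-75109387, plus strand, 153 bases before the start), Mcm6 (chr1:128359784-128359835 and chr1:128359725-128359772, minus strand, 110 and 47 bases before) and Mcm7 (chr5:138172021-138172068, minus strand, 165 bases before) encode helicase subunits.
Mcm5: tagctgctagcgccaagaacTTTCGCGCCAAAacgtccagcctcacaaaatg
Mcm6: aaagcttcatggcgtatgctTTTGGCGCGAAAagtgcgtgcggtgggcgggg
Mcm6: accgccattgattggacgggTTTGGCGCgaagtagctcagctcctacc
Mcm7: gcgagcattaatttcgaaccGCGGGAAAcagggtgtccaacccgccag
The other 5 lay in Cdc6 (chr11:98907993-98908040, plus, 138 bases before), Gins3 (chr8:95633498-95633545, plus, 41 bases before), Pola1 (chrX:93632266-93632313, minus, 138 bases before), Rfc3 (chr5:151651209-151651238, minus, 10 bases before) and Uhrf1 (chr17:56304108-56304155, plus, 185 bases before).
Cdc6: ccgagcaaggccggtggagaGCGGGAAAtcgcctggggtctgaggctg
Gins3: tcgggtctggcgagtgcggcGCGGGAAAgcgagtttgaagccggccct
Pola1: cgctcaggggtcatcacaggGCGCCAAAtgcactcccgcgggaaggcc
Rfc3: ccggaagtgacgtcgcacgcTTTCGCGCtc
Uhrf1: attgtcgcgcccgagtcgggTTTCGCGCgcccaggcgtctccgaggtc
A match describes these letters and not a bound site. Among 30 further replication genes with a window 33.3% held the letters, among 15 genes of G1 control 40% did, and among 17 genes of mitosis 5.88% did.

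The values are UMI counts, in which each UMI stands for 1 captured transcript end. The libraries held 15007 and 25631 barcodes with 487859656 and 436352742 UMIs (sGC-Ctr first, here and in every pair of values that follows), and 131 barcodes occurred in both. After removal of cells with many mitochondrial UMIs or with outlying depth, 12220 and 22498 cells stayed, with a median of 35776.5 and 8685 UMIs. Cells were assigned to a class by marker UMIs, and 9838 and 12810 cells took a class. The cells in no class made up 19.5% and 43.1%, most of them (1352 of 2382 and 7473 of 9688) with markers of both cancer cells and macrophages. Cancer cells (Krt18, Krt8, Rhox5, Hmga2) numbered 6852 and 9519, macrophages 2573 and 2838, endothelial cells 53 and 47, fibroblasts 120 and 157, and lymphocytes 48 and 47. All markers of each list were found in the cells of its class, although none of the 8 fibroblast markers was among the 10 leading genes of fibroblasts. The same markers assigned the cells, so finding them gives no support for the classes. In pericytes (34 and 22 cells) Gucy1b1 had 55 and 12 UMIs, or 129 (97.4 to 168) and 45.2 (23.3 to 78.9) CPM. All intervals are exact 95% intervals that cover counting error only, and levels are in CPM, the UMIs of a gene per 1000000 UMIs of the class. Where a log2 ratio of sGC-∆PC over sGC-Ctr follows a pair of levels or a gene in parentheses, its interval stands after it. A transcript gives 1 tag at its 3′ end whatever its length, so levels were not divided by length.

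In cancer cells the 34 genes together made up 1302 (1299 to 1306) and 1366 (1362 to 1370) CPM. Their levels spanned from Dut at 225 and 226 to Gins3, a subunit of the GINS complex, at 5.35 and 5.26. Dut encodes dUTPase, which keeps uracil out of DNA, and by itself held 17.3% and 16.6% of the UMIs of all 34 genes. Its lead over Pcna, the sliding clamp, with 90.7 (89.8 to 91.7) and 102 (101 to 103), was far larger than the counting intervals. Mcm3 followed with 88.4 and 86.1, Mcm7 with 77.9 and 86.3, and Mcm6 with 74.7 and 77.7. In sGC-∆PC the intervals of Mcm3 (85.1 to 87.2) and Mcm7 (85.3 to 87.4) overlapped, so these 2 were not separable there. Lig1, the ligase of Okazaki fragments, stood at 67 and 70.4. The order of the first 2 and of the places 5 to 16 was the same in both libraries.

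The MCM helicase, which unwinds DNA at the fork, formed the most abundant group with 361 and 376 CPM for its 6 subunits. These subunits act in a ring with 1 copy of each, yet their transcripts ranged from 35.9 and 38.2 for Mcm5 to the values of Mcm3. The 5 genes of nucleotide supply and uracil removal made up 340 and 354. Apart from Dut, they were Rrm1 (45.3 and 50.7) and Rrm2 (26.3 and 32.1), the large and small subunits of ribonucleotide reductase, Tyms (33.3 and 35.3), thymidylate synthase, and Ung (9.92 and 9.57), which removes uracil from DNA. Loading and activating factors were scarcer than the helicase. The loaders Cdt1 and Cdc6 stood at 31.5 and 33.9 and at 9.53 and 9.69, and the activating factors Mcm10, Cdc45 and Gins1 to Gins3 between 5.26 and 29.3.

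Catalytic polymerase subunits were also at low levels. Pola1, the subunit that extends primers, had 20.8 and 23.9, Prim1, the primase, 22.1 and 24.8, and Pole, of the leading-strand polymerase, 9.62 and 9.87. The clamp loader subunits Rfc3 (37.7 and 38.7) and Rfc4 (41.4 and 43.2) lay well under the clamp they load. Rpa2, of the complex that coats single strands, had 20.5 and 20.9, and the flap nuclease Fen1 20 and 21.5. Of the genes that rebuild chromatin behind the fork, Uhrf1, which reads hemimethylated DNA, had 38.8 and 41.6, and the histone chaperone subunits Chaf1a and Chaf1b had 35.5 in both and 10.1 and 11.1. Among the regulators, E2f1, a transcription factor of the set itself, had 28.2 and 28.4, Clspn, which carries the replication checkpoint signal, 20.3 and 20.8, Ccne1 (cyclin E1) 12 and 12.9, and Ccne2 (cyclin E2) 15.8 and 16.5.

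**Figure D1:**
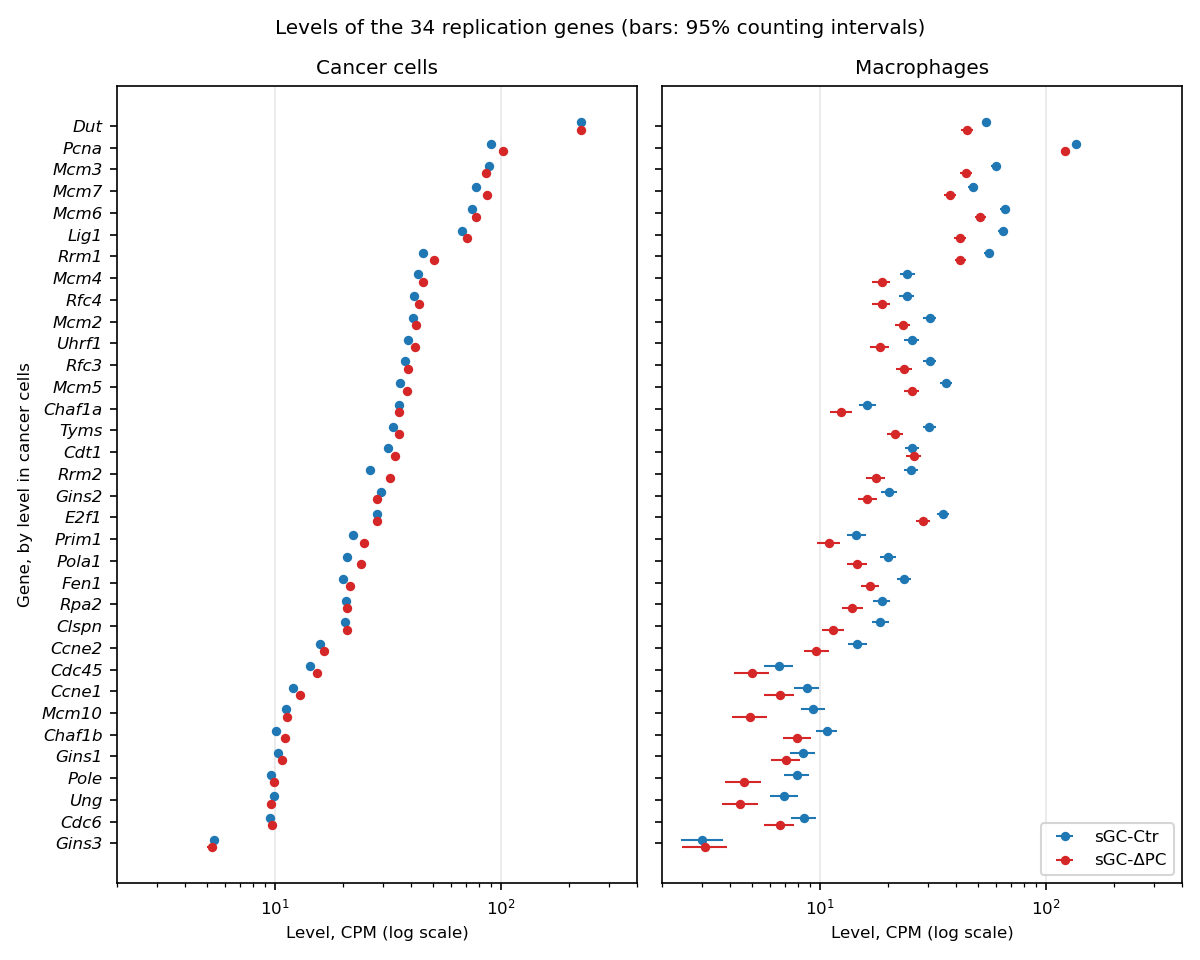
Each point is the level of 1 gene, in CPM on a log axis, in cancer cells (left) and macrophages (right) of sGC-Ctr (blue) and sGC-∆PC (red), with exact 95% counting intervals. In cancer cells Dut stands apart at 225 and 226, while in macrophages Pcna leads with 136 and 121 and most red points lie left of the blue ones.

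Macrophages carried fewer replication transcripts than cancer cells, and in another order. Summed levels were 987 (976 to 999) and 759 (749 to 770), which is 75.8% and 55.6% of the level in cancer cells of the same library. Of the 34 genes, 28 and 32 were lower than in cancer cells, against 50.5% and 52.5% of all genes. By 2-fold or more, 3 and 11 of the 34 were lower. Over all genes, 21.5% and 21.6% were lower by 2-fold or more, and 22.3% and 21.4% were higher by as much, which held for 0 of the 34 in both libraries. The median of the 34 log2 ratios was -0.28 and -0.79, against -0.01 and -0.06 over all genes.

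Dut differed most between these 2 classes. It had 54.5 (51.9 to 57.3) and 44.7 (42.2 to 47.4) CPM in macrophages, or 24.2% (23 to 25.5) and 19.8% (18.6 to 21) of its level in cancer cells. Cdc45, which joins the helicase when origins fire, and Chaf1a were the other 2 genes lower by 2-fold or more in both libraries, with log2 ratios of -1.13 and -1.62 for Cdc45 and of -1.13 and -1.51 for Chaf1a. Pcna, the sliding clamp, stood on the opposite side. Its level in macrophages was 136 (132 to 140) and 121 (116 to 125), which is 150% (145 to 155) and 118% (114 to 123) of cancer cells. Rrm1, of ribonucleotide reductase, Fen1 and E2f1 were higher in macrophages than in cancer cells of sGC-Ctr, at 123% (117 to 130), 118% (109 to 127) and 124% (116 to 132). With every cell thinned to 2000 UMIs, so that each weighs the same, the intervals of macrophages and cancer cells of sGC-Ctr overlapped for these 3 genes, with 43.2 (37.7 to 49.3) and 41.9 (38.5 to 45.5) CPM for Rrm1, 17.5 (14 to 21.5) and 15.9 (13.9 to 18.2) for Fen1 and 31.8 (27.1 to 37.1) and 28.5 (25.7 to 31.4) for E2f1. From all UMIs, the same 3 genes of sGC-∆PC were at 82.5% (77.5 to 87.7), 77.6% (70.2 to 85.6) and 100% (93 to 108). For Pcna, thinned cells of sGC-Ctr gave 118 (109 to 128) CPM in macrophages and 81.1 (76.4 to 86) in cancer cells. In thinned cells of sGC-∆PC the 2 intervals of Pcna overlapped, at 112 (102 to 122) and 100 (95.5 to 105).

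The scarcer classes had lower summed levels than cancer cells of their library, with few cells behind each value. Endothelial cells, which line vessels, had 588 (550 to 629) and 896 (839 to 956). Tyms went the other way in them, with 83.7 (69.6 to 99.8) and 87.8 (70.6 to 108) CPM, or 251% (209 to 300) and 249% (200 to 306) of cancer cells. Fibroblasts, the cells of connective tissue, had 546 (519 to 575) and 426 (397 to 457). Lymphocytes had 965 (834 to 1111) and 1306 (1168 to 1455), and in sGC-∆PC their interval reached the level of cancer cells, at 95.6% (85.5 to 107). A few cells held much of these counts. The 3 cells with the most UMIs of the 34 genes held 23.9% and 49.5% of the UMIs in endothelial cells, 32% and 26.8% in fibroblasts and 54.6% and 43.4% in lymphocytes, against 1.73% and 2.52% in macrophages and 0.349% and 0.416% in cancer cells. In granulocytes, which serve as background for shares of cells, the 3 cells held 9.64% and 38.7%. Among cancer cells, 15.8% and 11.1% of the cells held 50% of the UMIs of the 34 genes. These shares, like those of the 3 cells, are from all UMIs and also depend on the depth of the cells. With cancer cells thinned to 2000 UMIs, the variance of the summed genes per cell divided by their mean was 2.71 and 2.11. The libraries are therefore not ranked by these shares.

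The share of cells that carry replication transcripts was compared after each cell was thinned to 2000 UMIs. Shallower cells were left out (37 and 197 cancer cells, 25 and 543 macrophages, 60 of 158 and 69 of 180 granulocytes). Granulocytes, mature white cells that no longer divide, gave the background (98 and 111 cells). Macrophage markers were admitted in them, at 33.6% and 27.8% of the level in macrophages. The part of macrophage RNA in this background was not tested. At least 1 UMI of the 34 genes was seen in 63.3% (52.9 to 72.8) and 64.9% (55.2 to 73.7) of granulocytes. Cancer cells were above this, with 77.1% (76.1 to 78.1) and 83.4% (82.7 to 84.2). Macrophages (59.9% and 61.4%), endothelial cells (60.4% and 57.8%) and fibroblasts (45.3% and 54.6%) were at or under it, so these shares were not above that of granulocytes. Lymphocytes had 51.2% (35.5 to 66.7) and 74.4% (58.8 to 86.5), and both intervals overlapped that of the granulocytes. Before thinning, the share was 99.8% and 99.1% in cancer cells, 93.9% and 88.9% in macrophages and 62.7% and 70% in granulocytes, whose median depth was 2154 and 2369.5 UMIs, against 51501.5 and 16837 in cancer cells and 10382 and 7870.5 in macrophages.

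Cells with 5 or more UMIs of the 34 genes made up 16.2% (15.4 to 17.1) and 17.5% (16.8 to 18.3) of cancer cells and 8.83% (7.76 to 10) and 5.45% (4.55 to 6.46) of macrophages. Among granulocytes there were 0 and 3 such cells, or 0% (0 to 3.69) and 2.7% (0.561 to 7.7). Macrophages of sGC-Ctr therefore lay above the background, while in sGC-∆PC the intervals of macrophages and granulocytes overlapped. Endothelial cells had 2 and 2 such cells, fibroblasts 3 and 0, and lymphocytes 2 and 6, with wide intervals.

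**Figure D2:**
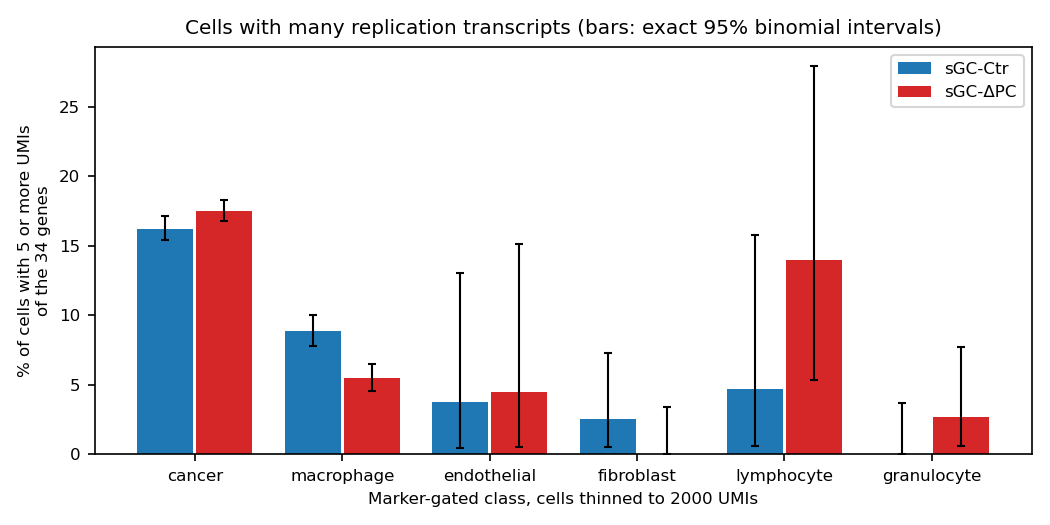
Bars give the percentage of cells with 5 or more UMIs of the 34 genes after thinning to 2000 UMIs, by class, for sGC-Ctr (blue) and sGC-∆PC (red), with exact 95% binomial intervals. Cancer cells stand at 16.2% and 17.5% and macrophages at 8.83% and 5.45%, while the classes with few cells have wide intervals.

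Single genes differed in how far they stood above the background. Dut was found in 33% and 35.9% of thinned cancer cells, against 10.2% and 10.8% of granulocytes and 7.93% and 7.19% of macrophages, which were thus not above the background. Any of the 6 MCM subunits was found in 40.9% and 45.1% of cancer cells, 25.9% and 24.9% of macrophages and 16.3% and 27% of granulocytes, so macrophages of sGC-∆PC were not above the granulocytes of their library. Pcna was found in 13.9% and 17.1% of cancer cells and 18.8% and 18.6% of macrophages, and its share in granulocytes was 14.3% and 17.1%. By this measure Pcna in cancer cells was not above the granulocytes, which also held macrophage markers.

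Between the libraries, summed replication genes of cancer cells differed little. The sum was higher in sGC-∆PC by a log2 ratio of 0.07 (0.06 to 0.08), and by 0.14 (0.11 to 0.17) when each cell was thinned to 2000 UMIs. Of the 34 genes 30 were higher in sGC-∆PC. Their median log2 ratio was 0.06, near the 0.02 over all 15103 genes with at least 50 UMIs. For counts of genes merely higher or lower between the libraries, here and below, the share over all genes is not given. Such counts are to be read with the medians. Of the 34 genes 0 passed 1.5-fold in either direction, while 7.52% of all genes were higher and 0.629% lower by that much. Rrm2, of ribonucleotide reductase, had the largest ratio, from 26.3 to 32.1 CPM (0.29, 0.25 to 0.33). After thinning its ratio was 0.75 (0.54 to 0.96), and it was then the 1 gene of the 34 higher by 1.5-fold or more, against 4.11% of all genes. Next from all UMIs were Pola1 (0.20, 0.16 to 0.25), Pcna (0.17, 0.15 to 0.19) and Prim1 (0.17, 0.12 to 0.21). Of the other abundant genes Mcm7 had 0.15 (0.12 to 0.17), Lig1 0.07 (0.05 to 0.10) and Mcm6 0.06 (0.03 to 0.08). The ratio was -0.05 (-0.12 to 0.02) for Ung, the lowest, -0.04 (-0.06 to -0.02) for Mcm3, 0.01 (-0.01 to 0.02) for Dut, 0.01 (-0.03 to 0.05) for E2f1, 0.10 (0.04 to 0.16) for Ccne1 and 0.07 (0.01 to 0.12) for Ccne2. Of 40 further replication genes 31 were higher (median 0.07), of 20 mitosis genes 20 (median 0.12), and of 19 genes of G1 control 15 (median 0.04), with Cdkn1c, a cyclin-dependent kinase inhibitor, as the 1 gene of these lists past 1.5-fold (0.92).

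The difference in cancer cells depended on the depth range compared. These ranges were added after the data had been seen. In cells with 20000 to 40000 UMIs (1574 and 1414 cells) the 34 genes summed to 628 and 1156 CPM (0.88, 0.86 to 0.90), and 34 of 34 genes were higher in sGC-∆PC, with a median log2 ratio of 1.08 against -0.05 over all genes. In cells with 10000 to 20000 UMIs (176 and 2157 cells) they summed to 809 and 1299 (0.68, 0.62 to 0.74), and 33 of 34 were higher (median 0.77 against 0.05). In cells with 40000 to 80000 UMIs (3884 and 2154 cells) the direction turned, with 1364 and 1248 (-0.13, -0.14 to -0.12) and 34 of 34 lower (median -0.16 against 0.04). Cancer cells of 80000 UMIs or more were in no range, although each of them weighs more in the sums from all UMIs than a shallower cell. Their direction is not shown. In cells of 2000 to 5000 and of 5000 to 10000 UMIs, where sGC-Ctr had 48 and 51 cells, the log2 ratio was 0.05 (-0.15 to 0.26) and 0.05 (-0.07 to 0.18).

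Cells of equal UMIs in the 2 libraries need not be alike in RNA content. Macrophage markers in these cancer cells were at 0.669 and 1.15 per 10000 UMIs in the range of 20000 to 40000 UMIs and at 0.706 and 0.937 in the next one, values that the limit of the gate bounds. The part of foreign RNA and of depth in the result was not tested.

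**Figure D3:**
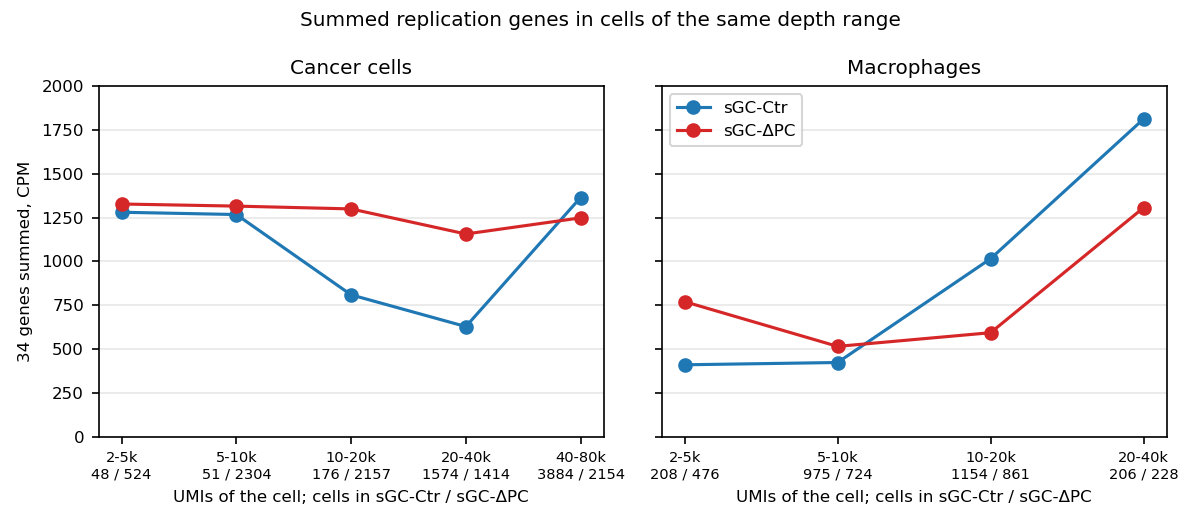
Summed level of the 34 genes, in CPM, in cells of the same range of UMIs, for cancer cells (left) and macrophages (right) of sGC-Ctr (blue) and sGC-∆PC (red). In cancer cells sGC-Ctr is at 628 in the range of 20000 to 40000 UMIs against 1156 in sGC-∆PC, and in macrophages the order of the libraries turns between 5000 and 20000 UMIs.

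In macrophages the replication genes were lower in sGC-∆PC. The sums were 987 and 759 CPM (-0.38, -0.41 to -0.35), and 32 of the 34 genes were lower, with a median log2 ratio of -0.40 against -0.04 over all 11944 genes. Of the 34 genes 6 passed 1.5-fold lower, against 2.39% of all genes, and 0 passed it higher, against 3.63%. Mcm10, which acts on the helicase as origins fire, differed most, with 9.29 and 4.87 CPM (-0.93, -1.25 to -0.62). Pole had 7.89 and 4.6 (-0.78, -1.11 to -0.45), and Clspn 18.5 and 11.4 (-0.69, -0.90 to -0.48). Ung had 6.93 and 4.44 (-0.64, -0.98 to -0.30), Lig1, the ligase that joins lagging-strand fragments, 64.3 and 41.7 (-0.62, -0.73 to -0.51), and Ccne2 14.6 and 9.62 (-0.60, -0.83 to -0.37). When each cell was thinned to 2000 UMIs, Ung had a ratio of 0.40 (-0.64 to 1.45), with the sign turned and an interval that includes 0, and of the 30 genes that then had at least 50 UMIs 1, Mcm5, was lower by 1.5-fold or more, against 2.63% of all genes. Mcm5 is not among the 6 genes named from all UMIs.

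Other genes had ratios nearer 0. Cdt1 was at 25.6 and 26 (0.02, -0.13 to 0.17), and Gins3 at 3 and 3.09 (0.04, -0.41 to 0.49). Pcna had a ratio of -0.17 (-0.24 to -0.11), E2f1 of -0.29 (-0.43 to -0.15), Dut of -0.29 (-0.40 to -0.18) and Ccne1 of -0.40 (-0.69 to -0.11). In the thinned cells the sign of Ccne1 turned, as for Ung, with a ratio of 0.42 (-0.41 to 1.27). The signs of Cdc45, Gins1, Rrm2 and Prim1 turned as well, and all these intervals include 0. Cdt1 and Gins3 stayed higher after thinning, and all other genes of the set stayed lower. Of the related lists, 20 of 20 mitosis genes were lower with 13 past 1.5-fold (median -0.64). Of 40 further replication genes 39 were lower with 3 past 1.5-fold (median -0.29). The 20 genes of G1 control had a median of -0.05, from Cdkn1c at -0.86 to Cdkn1a at 0.27.

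This difference also depended on depth. With macrophages thinned to 2000 UMIs the log2 ratio of the sum was -0.20 (-0.27 to -0.13). Macrophages of 10000 to 20000 UMIs (1154 and 861 cells) had 1015 and 593 CPM (-0.77, -0.82 to -0.73) with 33 of 34 genes lower (median -0.80 against -0.04 over all genes). Those of 20000 to 40000 UMIs (206 and 228 cells) had 1812 and 1306 (-0.47, -0.52 to -0.43) with 34 of 34 lower (median -0.52 against -0.07). In cells of 5000 to 10000 UMIs (975 and 724 cells) the sums were 423 and 515 (0.28, 0.21 to 0.36). Of the 25 genes with at least 50 UMIs 21 were higher (median 0.31 against -0.03 over all genes). In cells of 2000 to 5000 UMIs (208 and 476 cells) they were 410 and 770 (0.91, 0.74 to 1.09), and 10 of 10 were higher. Cancer markers in these macrophages lay between 0.852 and 1.25 per 10000 UMIs in every range and library, where the gate admits fewer than 3, and the part of cancer cell RNA in the result was not tested.

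**Figure D4:**
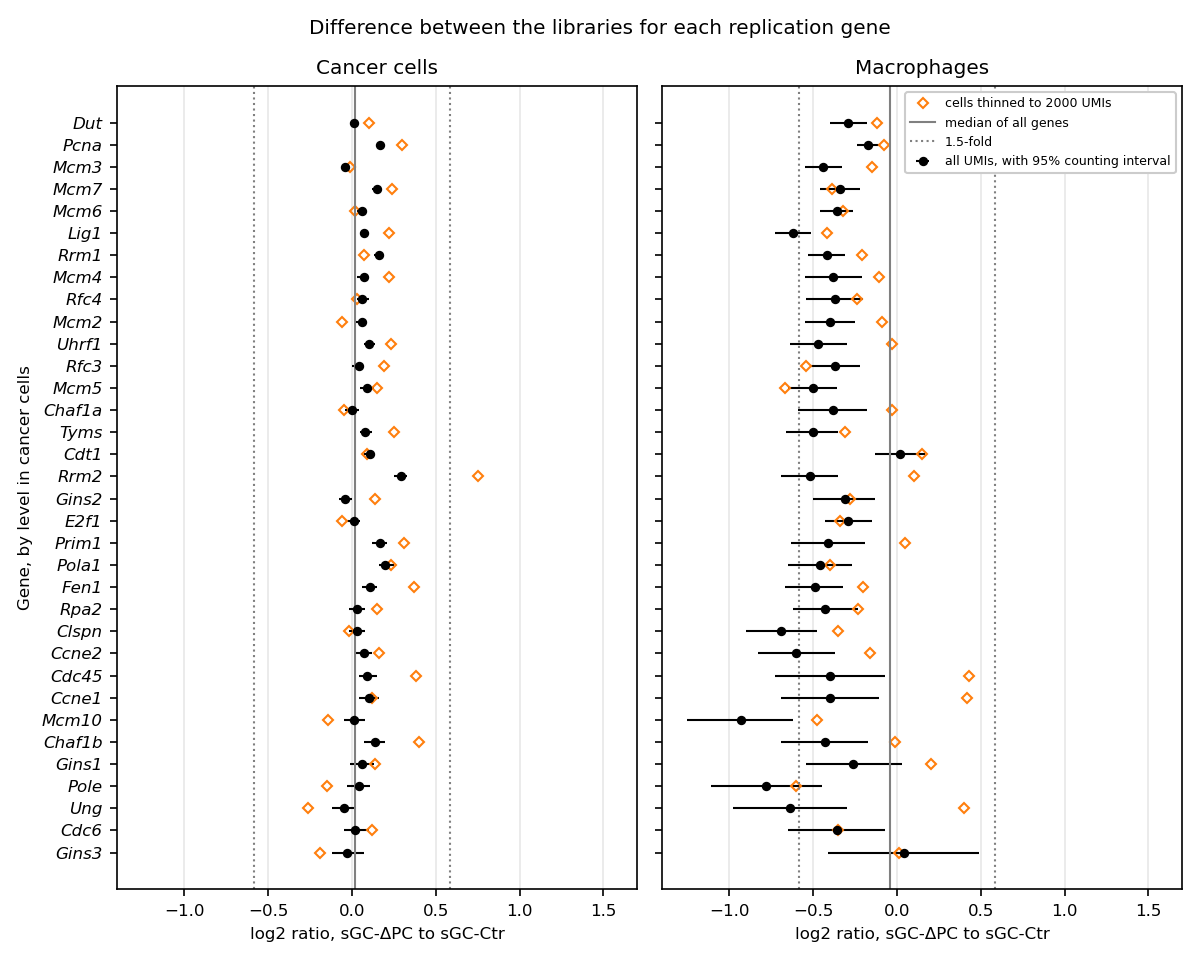
For each of the 34 genes, the log2 ratio between the libraries (sGC-∆PC over sGC-Ctr) in cancer cells (left) and macrophages (right), from all UMIs with exact 95% counting intervals and from cells thinned to 2000 UMIs. In cancer cells 0 genes pass 1.5-fold from all UMIs, and in macrophages 6 lie below the lower limit, Mcm10 farthest at -0.93.

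In endothelial cells 10 of the 34 genes had at least 50 UMIs in the 2 libraries together. A gene could reach this minimum through the library where it was higher, also in fibroblasts and lymphocytes. The counts of genes past 1.5-fold in these classes therefore only describe the genes that passed, and give no support for a difference. Of these, 6 (Mcm3, Dut, Pcna, Lig1, Mcm5, Uhrf1) were higher in sGC-∆PC by 1.5-fold or more and 0 lower, against 4.95% and 4.24% of all genes. The sum had a log2 ratio of 0.61 (0.47 to 0.74), and of 0.04 (-0.50 to 0.58) with each cell thinned to 2000 UMIs. Mcm5 had the largest ratio, with 14.9 and 35.1 CPM (1.24, 0.44 to 2.08), and Uhrf1 the smallest of the 6, with 19.6 and 30.3 (0.63, -0.15 to 1.41). In fibroblasts 5 of 15 genes (Mcm6, Rpa2, Rfc3, Gins2, Mcm4) were lower by 1.5-fold and 0 higher, against 4.86% and 4.13% of all genes. Among these 5, Gins2 had the largest difference, with 23.2 and 8.08 CPM (-1.52, -2.44 to -0.69), and Rpa2 the smallest, with 14.1 and 8.08 (-0.80, -1.77 to 0.10). The 34 genes summed had a ratio of -0.36 (-0.49 to -0.23), of -0.26 (-0.66 to 0.14) with cells thinned to 2000 UMIs, and of 0.16, in the other direction, when cells with markers of more than 1 class were kept. Mitosis genes had the opposite sign in fibroblasts, with 12 of 15 higher and 5 past 1.5-fold (median 0.33), and of 26 further replication genes 20 were lower (median -0.22). In lymphocytes only Pcna (20 and 37 UMIs) and Dut (21 and 31 UMIs) had enough UMIs, and 0 of these 2 passed 1.5-fold, against 5.92% of all genes higher and 10.8% lower. The 34 genes summed had a ratio of 0.44 (0.18 to 0.70), and of -0.01 in cells with at least 5000 UMIs.

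To see which replication genes occurred in the same cells, cancer cells were thinned to 5000 UMIs and split by the summed UMIs of Mcm2 to Mcm7. Cells with 4 or more such UMIs made up 13.5% and 14.9% (912 and 1310 of 6767 and 8798 cells). The range has no gap at its edge: 350 and 590 cells had exactly 4 UMIs and 666 and 965 had 3. The 6 MCM genes chose the cells, so only the 28 other genes are described, and since the cells were chosen in the same counts no test is given. All 28 had higher values in the cells rich in MCM transcripts in both libraries. The share of all genes that were higher is not given. Over the 6037 genes with at least 500 UMIs in each library, the median log2 ratio was 0.04 in both. Only 18 of the 28 reached this minimum. By their ratios these 18 took places 5 to 131 in sGC-Ctr and 7 to 189 in sGC-∆PC among the 6037 genes, MCM genes included. The scarcer genes have no such background. The loader Cdc6 had the largest log2 ratio, 2.76 (2.40 to 3.11) and 2.04 (1.74 to 2.34). The smallest belonged to Dut in sGC-Ctr, at 0.85 (0.77 to 0.93). In sGC-∆PC it belonged to Gins3, at 0.50 (-0.03 to 0.99), and Dut, at 0.50 (0.43 to 0.57).

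After Cdc6, the largest ratios in sGC-Ctr belonged to Mcm10 (2.44 and 1.40), Clspn (2.31 and 1.54), Rrm2 (2.29 and 1.35) and Uhrf1 (2.24 and 1.41). Of the G1/S switch, Ccne2 had 2.19 (1.91 to 2.47) and 1.49 (1.25 to 1.73), Ccne1 1.97 (1.64 to 2.29) and 1.42 (1.15 to 1.68), while E2f1, with 1.39 (1.17 to 1.60) and 1.05 (0.86 to 1.24), had a smaller ratio than both cyclins. In sGC-∆PC the intervals of E2f1 and Ccne1 overlapped, so these 2 were not separable there. Ung had 2.17 (1.84 to 2.49) and 1.62 (1.32 to 1.91), Chaf1b 2.20 (1.84 to 2.56) and 1.82 (1.54 to 2.09) and Pcna 1.62 and 1.14. Outside every list, genes were ranked by the lower of their 2 library ratios. The first 10 were Hells, Pclaf, Dtl, Fbxo5, Hist1h1b, Ezh2, Hist2h2ac, Ncapd3, Dnajc9 and Fam111a. In this order they ran from 1.74 and 1.35 for Hells, a chromatin remodeler, to 1.35 and 0.98 for Fam111a. In sGC-Ctr alone their ratios ranged from 1.20 for Hist2h2ac to 2.03 for Pclaf. The cells rich in MCM transcripts were deeper before thinning, with a median of 62659 against 49850 UMIs in sGC-Ctr and 19897 against 19397.5 in sGC-∆PC.

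The ratios of the replication genes spread widely when the same cancer cells were split by the mitosis genes instead. Cells with 10 or more UMIs of the 20 mitosis genes (1246 and 1760 cells) shared 268 and 317 cells with those rich in MCM transcripts, or 29.4% and 24.2% of the latter and 21.5% and 18% of the former. Of the cancer cells not rich in MCM transcripts, 16.7% and 19.3% were rich in mitosis transcripts. In the cells rich in mitosis transcripts Ung was lower than in the rest, with log2 ratios of -1.16 (-1.76 to -0.62) and -1.08 (-1.55 to -0.64). E2f1 had -0.24 (-0.51 to 0.02) and -0.13 (-0.35 to 0.08), intervals that include 0. Ccne1 had 0.82 (0.46 to 1.16) and -0.14 (-0.47 to 0.18), and Cdc6 0.67 (0.26 to 1.07) and 0.21 (-0.15 to 0.56).

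Another set of genes was high in both kinds of cells. In the cells rich in mitosis transcripts Clspn had ratios of 1.94 (1.69 to 2.19) and 1.35 (1.13 to 1.56), Mcm10 of 1.79 (1.46 to 2.13) and 1.18 (0.86 to 1.49) and Pole of 2.01 (1.63 to 2.38) and 1.07 (0.75 to 1.38). Ribonucleotide reductase was alike, with 2.01 (1.79 to 2.23) and 1.03 (0.86 to 1.19) for Rrm2 and 1.94 (1.78 to 2.10) and 1.13 (0.99 to 1.27) for Rrm1. Cells are not replicates, and these intervals cover counting error only.

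**Figure D5:**
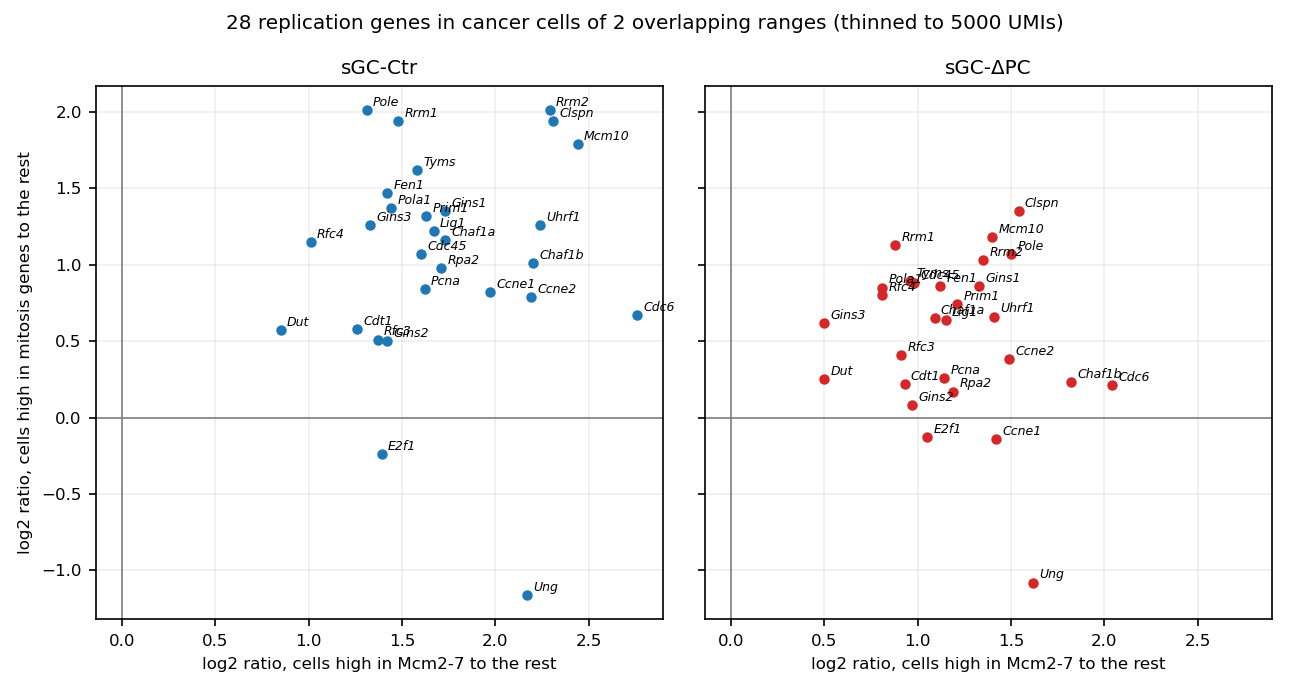
Each point is 1 of the 28 genes that did not choose the cells, in cancer cells of sGC-Ctr (left) and sGC-∆PC (right) thinned to 5000 UMIs. The x axis is the log2 ratio of cells rich in Mcm2 to Mcm7 over the rest and the y axis the log2 ratio of cells rich in mitosis genes over the rest, and Ung has the lowest y value in both, at -1.16 and -1.08.

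Macrophages were split in the same way, at 2 or more MCM UMIs (496 and 303 of 2340 and 1819 cells). Ung had the largest ratio among the 28 genes, with 4.35 (3.37 to 5.49) and 3.44 (2.40 to 4.56), from 10 and 12 UMIs in the rest. Ccne2 had 4.33 (3.62 to 5.12) and 3.16 (2.41 to 3.95), Mcm10 3.65 (2.82 to 4.55) and 3.40 (2.19 to 4.73) and Pcna 1.71 (1.55 to 1.87) and 1.25 (1.05 to 1.44). Ung, from 36 and 14 UMIs, was higher in the macrophages rich in mitosis transcripts (3 or more UMIs) than in the rest, by 2.52 (1.78 to 3.28) and 1.72 (0.65 to 2.73). E2f1 was higher by 1.04 (0.72 to 1.35) and 0.90 (0.43 to 1.35). In cancer cells Ung had the opposite sign, but the groups are not alike. Of the cells rich in mitosis transcripts, 50% and 37.6% of macrophages were also rich in MCM transcripts, against 21.5% and 18% of cancer cells. Of the macrophages rich in MCM transcripts 41.9% and 34% were also rich in mitosis transcripts, at lower limits than in cancer cells. Of the other macrophages 11.3% were, in both libraries.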

How the data were processed

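Per the labels and the study's methods, tumors were dissociated, and droplet 3′ libraries were made with a 10x Genomics kit and processed by the authors with Cell Ranger 6.1.1 on mm10. The deposited values are raw UMI counts per gene and barcode. The 34 genes and the other lists were chosen with earlier results of these data known.

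Cells with at least 10% mitochondrial UMIs, or more than 3 median absolute deviations from the library median in log10 UMIs or genes, were removed. Cells took a class from marker UMIs per 10000: cancer cells needed 8 with at least 2 markers, other classes 20 (fibroblasts 100, granulocytes 80) with at least 3 markers and fewer than 3 cancer UMIs. Cells above the limits of more than 1 class were left out, with some exceptions. Cancer cells could hold fewer than 200 fibroblast marker UMIs per 10000, and fewer than 5 of macrophages. Pericytes could pass the fibroblast limit, and granulocytes the macrophage limit if their own markers were higher. No doublet caller was run.

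Levels (CPM) are summed UMIs per 1000000 UMIs of the class, so deep cells weigh most. Thinning drew 2000 or 5000 UMIs per cell without replacement. To find cells rich in MCM or mitosis genes, whole UMI limits were set for the top 20%. These limits took between 13.5% and 21.2% of the cells. Ratios printed with an interval have no pseudocount. Counts of genes past a limit and medians over genes used a pseudocount of 0.5. Between libraries they cover genes whose UMIs in the 2 libraries added up to 50 or more. Between classes they cover genes whose UMIs in the 2 classes of 1 library added up to 50 or more. The median given for cells rich in MCM transcripts covers genes with at least 500 UMIs in each library. Intervals are exact (Poisson, binomial or conditional), at 95%, and cover counting error only. With 1 library per genotype, no p-value was computed. All 34 genes are accounted for, with levels and ratios in the text for the 6 most abundant in cancer cells, those past 1.5-fold in cancer cells or macrophages, E2f1, Ccne1, Ccne2 and Pcna. Outside the lists, the 10 genes named ranked highest by the lower of their 2 library ratios, among genes with at least 500 UMIs in each library. Python 3.11.15, numpy 2.4.6, scipy 1.17.1, pandas 2.3.3 and matplotlib 3.10.9 were used, and scripts were tested on simulated data. Alternatives changed the mitochondrial limit, cell filter, gate, depth, scaling, pseudocount, count minimum and fold limit.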

Additional observations from a re-analysis of the deposited data

How the results depend on the processing

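Of 128 values recomputed under alternatives, 67 stayed within the spread allowed, 56 moved and 5 changed sign, and the causes were not tested. For cancer cells, the log2 ratio between libraries (sGC-∆PC over sGC-Ctr) was 0.05 with a mitochondrial limit of 5%, 0.14 with cells thinned to 2000 UMIs and 0.05 relative to the median gene. In the 5 ranges of UMIs, which end at 80000, it was 0.05, 0.05, 0.68, 0.88 and, reversed, -0.13. After thinning 1 of 34 genes (Rrm2) passed 1.5-fold higher, against 4.11% of all genes. For macrophages, it was -0.52 with the limit of 5%, -0.20 thinned, -0.41 with at least 5000 UMIs, -0.41 with a stricter gate, -0.22 with mixed cells kept, -0.34 relative to the median gene and -0.27 with cancer markers under 1 per 10000 UMIs. In the 4 ranges, which end at 40000 UMIs, it was 0.91 and 0.28 (both reversed), -0.77 and -0.47. In macrophages, in place of 6 genes past 1.5-fold lower, 1 of 30 was called after thinning (Mcm5, not among the 6; 2.63% of all genes) and 0 of 34 at a 2-fold limit (0.36%). The ranges and the limit of 1 marker UMI were chosen after seeing the data.

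For endothelial cells the ratio was 1.16 (limit of 5%), 0.04 (thinned), 0.33 (mixed cells kept) and 0.86 (cancer markers under 1), and with at least 10 UMIs 19 of 33 genes were higher and 1 lower (11.5% and 9.6% of all genes), with 1 of 10 higher at 2-fold (0.834%). For fibroblasts it was 0.16 (mixed cells kept, reversed) and -0.79 (cancer markers under 1), with 2 of 33 genes higher and 12 lower at 10 UMIs (8.55% and 10.3% of all genes) and 2 of 15 lower at 2-fold (1.2%). For lymphocytes it was 0.83 (limit of 5%), 0.90 (thinned), -0.01 (at least 5000 UMIs, reversed) and 0.11 (cancer markers under 1), with 5 of 18 genes higher and 3 lower at 10 UMIs (18.8% and 17.3% of all genes) and 1 of 2 higher relative to the median gene (7.23%).

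Relative to cancer cells, thinning gave log2 ratios of -0.61 and -0.95 for macrophages, -0.96 and -1.06 for endothelial cells, -1.18 and -1.58 for fibroblasts and -1.02 and -0.26 for lymphocytes. The stricter gate gave -0.35 and -0.82 for macrophages. With mixed cells kept the values were -0.68 (macrophages, sGC-∆PC), -1.01 and -0.75 (endothelial), -1.14 and -1.06 (fibroblasts) and -0.31 (lymphocytes, sGC-∆PC). The 28 genes in cells rich in MCM transcripts had 1.19 and 0.83 at 2000 UMIs and 1.52 and 1.09 in the top 10%.

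No paired analysis was possible because each genotype has 1 library, and there is no replicate to leave out. Genotype, mice, library and depth cannot be told apart. Endothelial cells, fibroblasts and lymphocytes hold few cells, and their values rest on a few of these.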
